A study of Hakea prostrata with 26 samples.

Results

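RNA of cluster roots from hydroponic Hakea prostrata (family Proteaceae) was sequenced on days 0, 1, 4, 7 and 12, with 1 library on each day. The comparison described here sets the younger days 0, 1 and 4 (3 libraries) against the older days 7 and 12 (2 libraries), so it rests on 5 of the 26 libraries of the series, chosen by the day in their labels. The labels give the day but neither what day 0 marks, nor the phosphate (Pi) supply of these plants, nor how many roots or plants made up a library. They name no genotype or added agent, and the words young, mature and ageing are not theirs. White roots and mature leaves from hydroponics, each at 1, 10 and 50 uM Pi with 1 library per supply, and leaves of wild plants, with 3 libraries at each of the stages 1, 2, 3, 4 and M, served as separate readouts.

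A cluster root is a dense stretch of short, determinate rootlets that grow, mature and decline together within days or weeks. In the Proteaceae, mature cluster roots release carboxylates and phosphatases in a burst, which frees phosphate bound in poor soils, after which the rootlets senesce. The transcripts carry only IDs from a Trinity assembly, which the sources used here pair with no gene name, so the groups below are defined by where and when transcripts were found, and single items are named by ID. In RNA of whole tissue, fewer cells of a type and less RNA per cell cannot be told apart.

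The values were estimated counts for 51697 assembled transcripts of 25047 genes, of which 11687 had several isoforms. Cluster root totals ran from 8163081 on day 12 to 10857613 on day 0, white root totals from 9486439 to 11508234 and mature leaf totals from 17130939 to 20283815. At such depth a count of 100 has an exact Poisson 95% interval of 81.4 to 122, which covers counting error only. Between 32421 and 34056 transcripts had at least 10 counts on days 0 to 7, against 30326 on day 12. The 20 most counted transcripts held 3.98 to 5.51% of the counts on days 0 to 7 and 8.66% on day 12. As a check of the tissue, transcripts that preferred root to leaf were taken from the white root and mature leaf libraries (adjusted p under 0.05 in edgeR's quasi-likelihood test and at least 4-fold). There were 5715 root-preferring transcripts (15.7% of 36407 tested) and 3963 leaf-preferring ones (10.9%). Root-preferring transcripts held 19.8 to 23.1% of the counts in the 5 cluster root libraries, where white roots had 21.5 to 23.0% and mature leaves 1.18 to 1.41%. Leaf-preferring transcripts held 3.52 to 4.58%, highest on day 12, where mature leaves had 38.0 to 51.7%. On both lists the cluster root libraries lay close to white roots and far from mature leaves, and markers of single cell types could not be read without gene names.

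The 5 libraries lay in the order of their days, and day 12 stood furthest from the rest. Over the 19846 transcripts with at least 100 counts in a cluster root library, log2 CPM (TMM-scaled counts relative to a fixed library size) correlated between days 0 and 1 at r = 0.893, between days 1 and 4 at 0.914 and between days 4 and 7 at 0.843. From day 7 to day 12 the correlation was 0.751, and from day 0 to day 12 it was 0.298. These correlations are across transcripts, which are not independent replicates. The first principal component held 75.5% of the variance and placed the days at -129, -77.5, -53.8, 47.5 and 213. White roots correlated with days 0, 1 and 4 at 0.751 to 0.842, with day 7 at 0.691 to 0.745 and with day 12 at 0.458 to 0.578. The white root values on day 12 were therefore below those of every other day, and those with mature leaves ran from 0.394 on day 12 to 0.4996 on day 0.

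**Figure D1:**
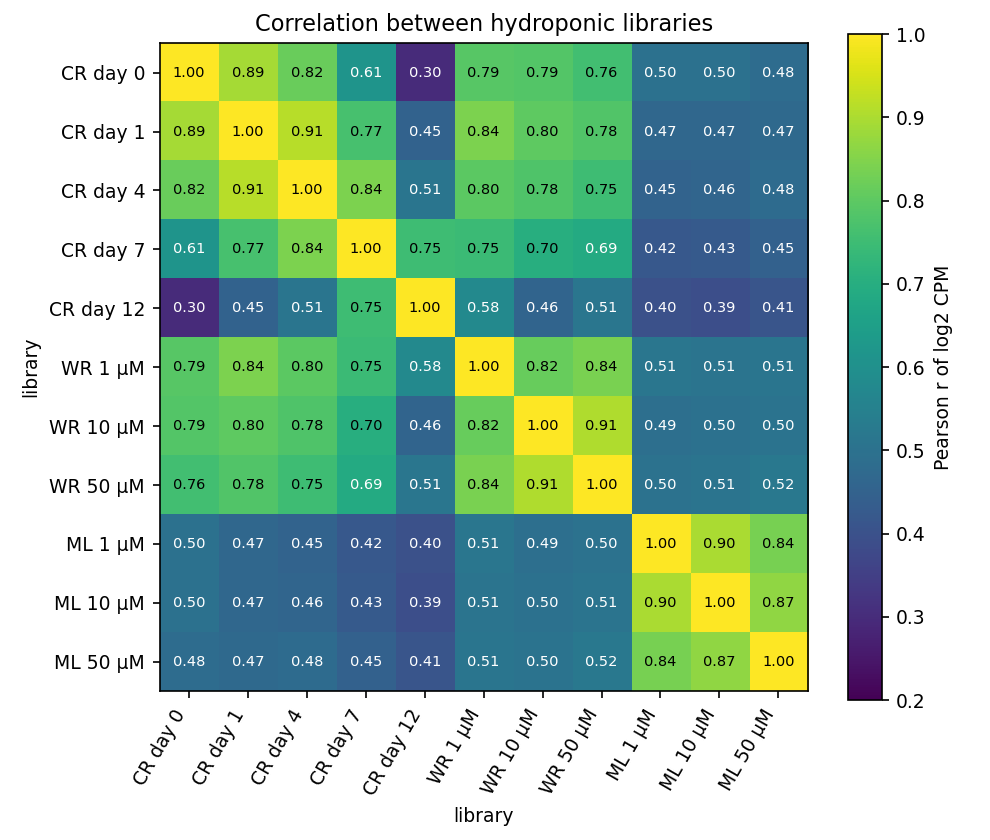
Pearson correlation of log2 CPM between the 11 hydroponic libraries over 19846 transcripts, with CR for cluster root, WR for white root with its Pi supply and ML for mature leaf. The day 12 library had r = 0.298 with day 0 and 0.751 with day 7.

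The most transcripts differed between days 7 and 12, and most of these were lower on day 12. A step was described by size alone, as 1 library a day allows no test: a transcript was measured if either library gave it 100 counts or more, and it was taken as different from 4-fold on. From day 0 to day 1, 199 of 17434 transcripts (1.14%) were higher and 98 (0.562%) lower. From day 1 to day 4, 106 of 16265 (0.652%) were higher and 60 (0.369%) lower, the fewest of the 4 steps. From day 4 to day 7, the boundary between the younger and older days, 337 of 16343 (2.06%) were higher and 126 (0.771%) lower. From day 7 to day 12, 572 of 16162 (3.54%) were higher and 1130 (6.99%) lower. Higher transcripts outnumbered lower ones up to day 7, and lower ones were the majority in the last step. The steps span 1, 3, 3 and 5 days, so their counts are not rates, and the last step rests on the day 12 library that stands apart.

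In the last step lower transcripts were most frequent on the root-preferring list. From day 7 to day 12, 475 of 2764 measured root-preferring transcripts (17.2%) were at least 4-fold lower and 101 (3.65%) at least 4-fold higher. Of 938 leaf-preferring transcripts, 29 (3.09%) were lower and 52 (5.54%) higher, and of 12460 on neither list 626 (5.02%) were lower and 419 (3.36%) higher. In the step from day 4 to day 7, the root-preferring list had gone the other way, with 99 of 2881 (3.44%) higher and 38 (1.32%) lower. The step from day 0 to day 1 likewise had 81 of 3001 (2.70%) higher and 26 (0.866%) lower. With root-preferring transcripts restricted to a 16-fold preference, 337 of 1478 (22.8%) were lower from day 7 to day 12. The median root-preferring transcript was at a log2 difference of -0.13 in that step, against 0.19 for leaf-preferring transcripts and -0.07 for the others, so the large differences lay in part of the list. The share of counts held by the root-preferring list was 23.1% on day 7 and 22.0% on day 12, although 475 of its members were lower.

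**Figure D2:**
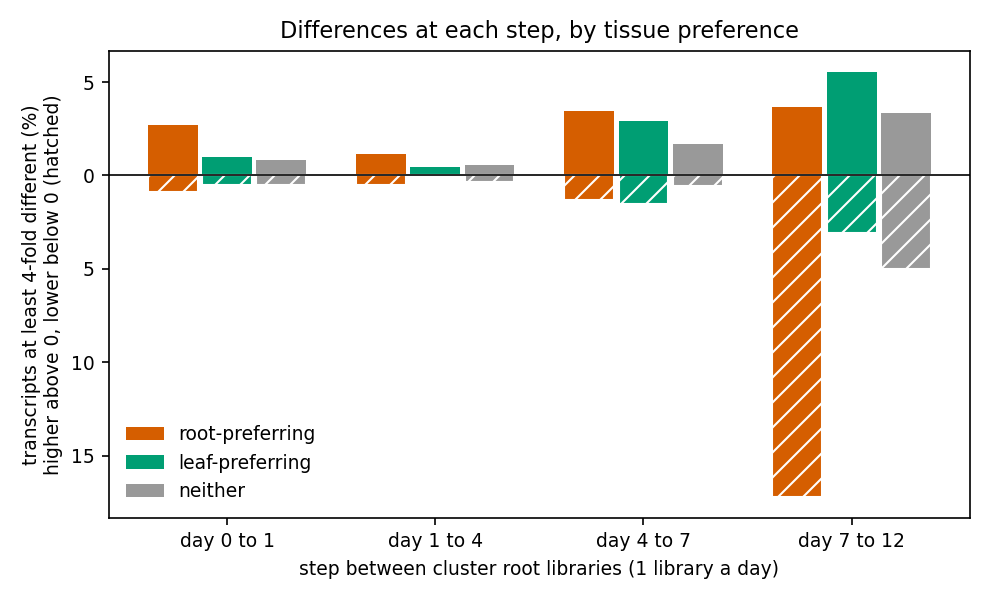
Percentage of measured transcripts that were at least 4-fold higher (solid, above 0) or lower (hatched, below 0) on the later day, for root-preferring, leaf-preferring and other transcripts at each step between cluster root libraries. Of root-preferring transcripts, 17.2% were lower on day 12 than on day 7.

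Between the younger and older days no transcript passed the test, while many were separated by size. edgeR's quasi-likelihood test of the age class, with the 5 libraries as its points, called 0 of 35818 transcripts (0%) at a Benjamini-Hochberg adjusted p under 0.05, and 7583 had an unadjusted p under 0.05. The smallest adjusted p was 0.155. No day has a replicate, so the spread in this test is the change among days 0, 1 and 4 and between days 7 and 12, which are treated as interchangeable within a class. On the same classes DESeq2's Wald test called 4252 transcripts (11.9%), 2354 higher and 1898 lower on the older days. edgeR with log2(day + 1) in place of the classes called 658 (1.84%), of which 566 were higher and 92 lower with time. edgeR without day 0, day 1 or day 4 called 0 as well. Without day 7 it called many, but the older class is then the day 12 library alone, so that number is not given. 

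The transcripts that separated the classes were therefore described by a size rule, chosen after the test had made no call. It asks for at least 4-fold between the nearest libraries of the 2 classes and at least 100 counts in a cluster root library. Of the 19846 transcripts with such a count, 323 (1.63%) were higher and 176 (0.887%) lower on the older days. No ordering of the days within a class enters the rule. At its edge, the last transcript inside lay at a log2 distance of 2.002 and the nearest outside at 1.997 among those higher, and at 2.008 and 1.991 among those lower. Within the limit, 131 of the 323 and 55 of the 176 were at least 8-fold apart, and 60 and 36 were at least 16-fold apart. The counts depended on the days used: without day 7 they were 1242 and 2428, without day 4 they were 630 and 409, without day 12 they were 242 and 239, and without day 0 the lower transcripts numbered 117. With a day removed fewer libraries have to be separated and fewer can supply the 100 counts, so the rule itself is changed. Of the 242 and 239 found without day 12, 212 and 176 were among the 323 and 176.

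Transcripts higher on the older days were mostly low on the younger days, which the size rule favours. Their median was higher on day 12 than on day 7. Their mean over days 0, 1 and 4 ran from 0 to 161 CPM with a median of 0.956 CPM, and 29 of the 323 had a mean of at least 10 CPM. Their median log2 CPM, on a scale where 0 counts lie at -2.58, was -0.78 on day 0, 0.01 on day 1, 0.25 on day 4, 3.99 on day 7 and 5.64 on day 12. They held 0.113% of all counts on day 0, 0.171% on day 1, 0.205% on day 4, 1.58% on day 7 and 6.17% on day 12 (Wilson 95% interval on day 12 of 6.15 to 6.19%). That interval covers counting error in 1 library only, not the spread between libraries or plants. Of the 323, 36 had no count at all on the 3 younger days. The rule puts every younger library below every older one, and an older library alone can supply the counts it asks for. Low levels and absent counts on the younger days thus follow largely from the choice. They were not compared with all measured transcripts, so nothing is read from them. From day 7 to day 12, 135 of the 323 were at least 4-fold higher again, 67 differed by less than 2-fold and 17 were at least 2-fold lower. In the younger days 130 were already at least 2-fold higher on day 4 than on day 0, and 27 were at least 2-fold lower. That is 40.2% and 8.36% of them, where 12.4% and 7.96% of all 19846 measured transcripts differed so. Days 0 and 4 also entered the choice of these members, most of them near 0 there, so nothing is read from these shares. The member with the largest share of counts on day 12 had 0.248, 6.34 and 0.512 CPM on days 0, 1 and 4, 80.8 CPM on day 7 and 5016 CPM on day 12. It alone held 0.475% of the day 12 library, was at 0.609 to 4.98 CPM in white roots and was at most 0.444 CPM in mature leaves.

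Transcripts lower on the older days were lower on each later day by their median. Their median log2 CPM was 4.15 on day 0, 3.46 on day 1, 3.23 on day 4, 0.35 on day 7 and -1.75 on day 12. Their share of counts was 0.799, 0.525 and 0.340% on days 0, 1 and 4, 0.0538% on day 7 and 0.0106% on day 12 (Wilson 95% interval on day 12 of 0.00990 to 0.0113%). Here too the interval covers counting error only. On day 4, 96 of the 176 were at least 2-fold below day 0 and 1 was at least 2-fold above it. These are 54.5% and 0.568% of the group, beside 7.96% and 12.4% of all measured transcripts. The days compared also entered the choice of members, so nothing is read from these shares. From day 7 to day 12, 70 were at least 4-fold lower again, 71 differed by less than 2-fold and 8 were at least 2-fold higher. Of all transcripts measured in that step, 6.99% were at least 4-fold lower and 3.54% at least 4-fold higher. Those 2 days entered the choice as well, so nothing is read from these numbers. The older libraries held no count of 32 members, which the choice of members also favours. The member with the largest share on day 0 was at 1013, 528 and 355 CPM on days 0, 1 and 4, at 78.2 CPM on day 7 and at 9.05 CPM on day 12. With log2(day + 1) as the term, edgeR called 104 of the 323 higher and 4 of the 176 lower transcripts, but these calls use the libraries that chose the members and are given as a description only.

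**Figure D3:**
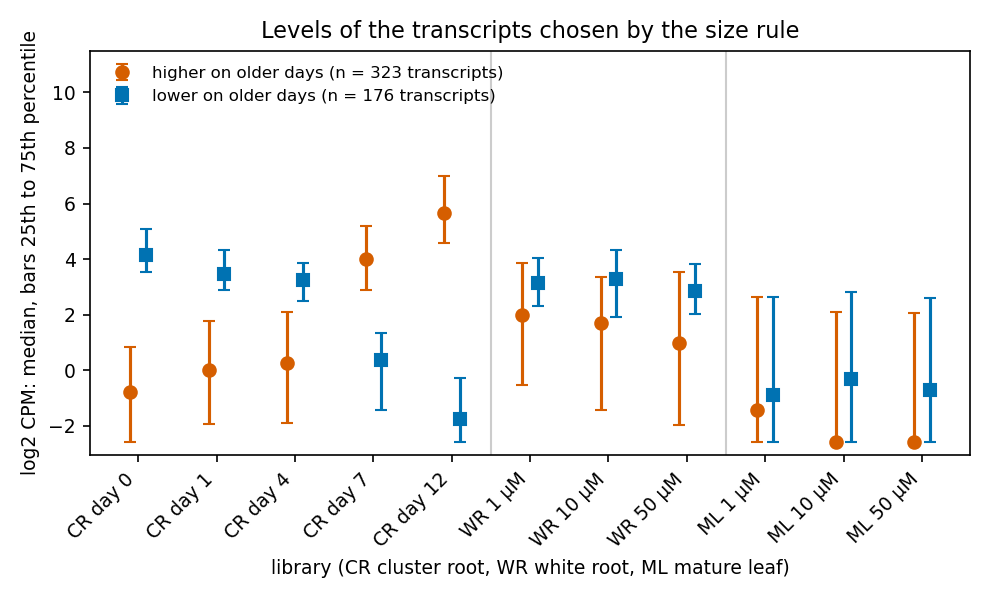
Median log2 CPM, with bars from the 25th to the 75th percentile, of the 323 transcripts higher and the 176 lower on the older days in each hydroponic library. In cluster roots the medians are set by the rule, while in white roots, which the rule did not use, the higher transcripts lie between 1.00 and 1.99 and the lower ones between 2.83 and 3.28.

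Among single transcripts, the 2 with the largest fitted difference in each direction were named, with ranges that do not overlap and a mean log2 CPM of at least 2. Such ranges are common: of 35818 tested transcripts, 8449 (23.6%) were so separated upward and 9247 (25.8%) downward. TRINITY_DN9413_c0_g1_i10 was at 0 CPM on days 0, 1 and 4, at 15.6 CPM on day 7 and at 163 CPM on day 12. TRINITY_DN20355_c1_g3_i3 was likewise at 0 CPM on the younger days, at 6.46 CPM on day 7 and at 157 CPM on day 12. Both were present only in the older of the cluster root libraries, with most of their counts on day 12. Against 3 counts over the younger libraries, the former was at least 872-fold higher on the older days (170-fold without day 12) and the latter at least 789-fold (70.2-fold without day 12). Neither passed the test (edgeR, adjusted p = 0.155 and 0.161). In white roots they reached at most 0.327 CPM and 0 CPM, and no count of either was found in mature leaves or wild leaves.

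TRINITY_DN4654_c0_g1_i10 was at 91.4 CPM on day 0, 6.802 CPM on day 1 and 17.2 CPM on day 4, and at 0 CPM on days 7 and 12. TRINITY_DN6254_c0_g1_i9 was at 52.7, 14.3 and 10.2 CPM on days 0, 1 and 4 and at 0 CPM on days 7 and 12. Among the cluster root libraries day 0 was the highest for both. That both older libraries lay below all younger ones was required by the choice. They were at least 243-fold and 161-fold lower on the older days, against 3 counts over the older libraries (69.1-fold and 72.6-fold without day 0). Neither passed the test (edgeR, adjusted p = 0.156 and 0.155). TRINITY_DN4654_c0_g1_i10 was abundant in white roots at 10 and 50 uM Pi, with 107 and 76.9 CPM, and at 0 CPM at 1 uM Pi. In wild leaves it was at 26.5 ± 25.1 CPM at stage 1 and 4.35 ± 7.53 CPM at stage 4 (SD, n = 3), a difference that did not pass (edgeR, adjusted p = 0.346). TRINITY_DN6254_c0_g1_i9 was at 2.15, 26.3 and 8.18 CPM in white roots at 1, 10 and 50 uM Pi, and at 0 CPM in the mature and wild leaf libraries.

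**Figure D4:**
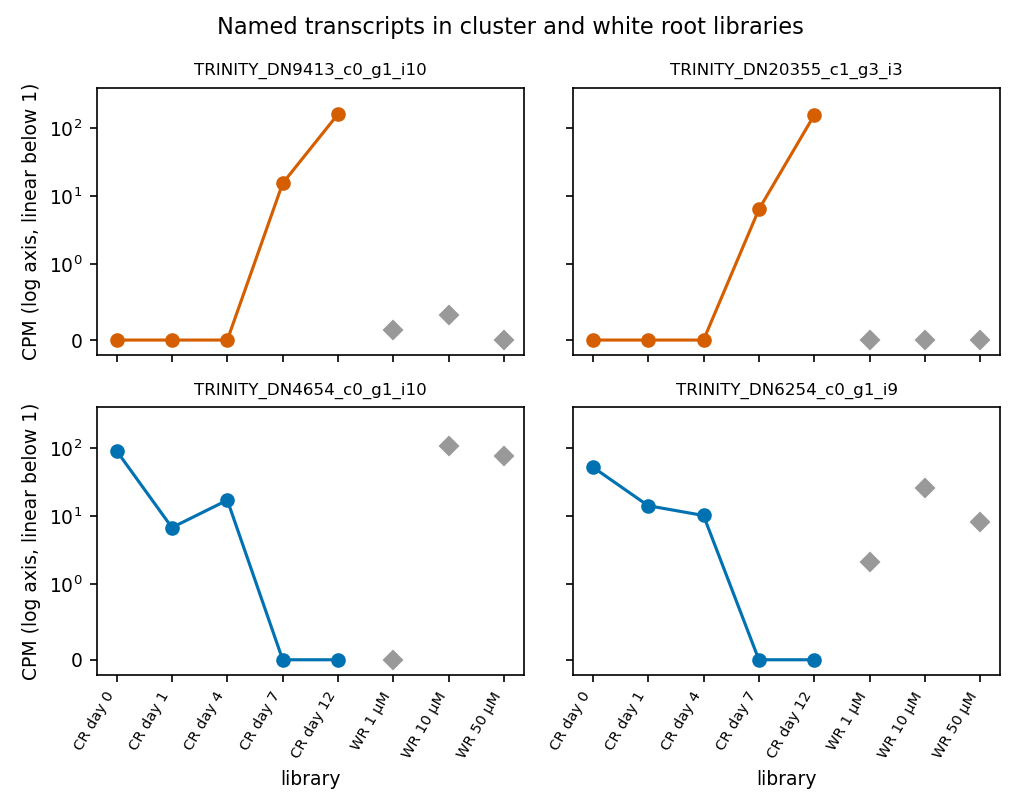
CPM of the 4 named transcripts in the 5 cluster root libraries (lines in order of day) and in white roots at 1, 10 and 50 uM Pi (grey), on an axis that is logarithmic above 1 and linear below. TRINITY_DN9413_c0_g1_i10 and TRINITY_DN20355_c1_g3_i3 are at 0 until day 4, and the lower panels are at 0 from day 7.

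Whole genes separated the classes less often than single transcripts, above all downward. Isoforms of a gene share reads, so counts were also summed per gene. With these sums the size rule held for 173 of 13269 genes (1.3%) that were higher and 55 (0.414%) that were lower on the older days, and the test called 0 of 19069 genes (smallest edgeR adjusted p = 0.111, with 5343 at an unadjusted p under 0.05). Of the 323 higher transcripts, 197 belonged to a gene that met the rule in the same direction. The mean of the summed gene was at least 2-fold higher on the older days for 301 of them and at least 2-fold lower for 1. Of the 176 lower transcripts, 55 belonged to a gene that met the rule. The summed gene was at least 2-fold lower for 143 and at least 2-fold higher for 2. Of all 19846 measured transcripts, 16% had a summed gene at least 2-fold higher and 16.9% at least 2-fold lower. Genes with a single isoform in the data supplied 92 (28.5%) of the higher and 38 (21.6%) of the lower transcripts, where they supplied 24.4% of all 19846. The sum of a gene includes its transcript, so the 2 are not independent.

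The named transcripts show both cases. The sum of TRINITY_DN20355_c1_g3, with 2 isoforms, was at 0 CPM on the younger days, 7.06 CPM on day 7 and 186 CPM on day 12, as its named transcript was. The sum of TRINITY_DN4654_c0_g1 was lower by smaller steps, from 306, 160 and 135 CPM on days 0, 1 and 4 to 77.2 CPM on day 7 and 31.2 CPM on day 12, a log2 fold change of -1.86 with an SE of 0.55 (edgeR, adjusted p = 0.125). The sum of TRINITY_DN6254_c0_g1 was at 253, 191 and 190 CPM, then at 155 and 57.1 CPM, a log2 fold change of -0.98 with an SE of 0.46 (edgeR, adjusted p = 0.218). For both, the gene was still counted on days when the named isoform was at 0. The sum of TRINITY_DN9413_c0_g1 was not silent in young roots, with 13.2, 3.01 and 2.61 CPM, and reached 20.4 and 190 CPM on days 7 and 12, a log2 fold change of 4.09 with an SE of 1.12 (edgeR, adjusted p = 0.119).

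By the same rule at gene level, TRINITY_DN20355_c1_g3 and TRINITY_DN3874_c0_g1 were named among the higher genes. TRINITY_DN3874_c0_g1, with a single isoform, was at 0 CPM on days 0, 1 and 4, at 13.9 CPM on day 7 and at 134 CPM on day 12, at least 733-fold higher (155-fold without day 12; edgeR, adjusted p = 0.111). Its highest value in the white roots was 0.068 CPM, from a single count. Named in the lower direction, TRINITY_DN4657_c0_g1 was at 26.0, 2.83 and 0.201 CPM on days 0, 1 and 4. TRINITY_DN198232_c0_g1 was at 21.7, 1.92 and 0.402 CPM on those days, and both were at 0 CPM on days 7 and 12. Their day 4 libraries held only 2 and 4 counts, so few reads part that day from the older ones. In CPM the largest drop lay between days 0 and 1, within the younger class. Both genes were named by fitted difference and ranges that do not overlap, not by the 4-fold size rule. They were at least 62.3-fold and 51.5-fold lower, and without day 0 at least 9.16-fold and 6.94-fold lower (edgeR, adjusted p = 0.172 and 0.166). TRINITY_DN4657_c0_g1 also fell in wild leaves, from 34.6 ± 9.42 CPM at stage 1 to 0.151 ± 0.262 CPM at stage 4 (SD, n = 3). Its log2 fold change was -7.38 with an SE of 0.90 (edgeR, adjusted p = 6.51e-06), where 30.5% of 16666 summed genes fell. TRINITY_DN198232_c0_g1 had no count in wild leaves.

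Opposite differences within a gene were few. Only 1 gene, TRINITY_DN1823_c0_g2, held both a higher and a lower transcript by the 4-fold rule, and 18 genes did so at 2-fold. This gene was singled out after its values were seen, and neither of these transcripts passed the age class test. Its isoform i4 was at 0.990, 1.40 and 0 CPM on days 0, 1 and 4 and at 19.7 and 34.3 CPM on days 7 and 12. Its isoform i5 was at 8.01, 8.67 and 12.7 CPM on the younger days and at 0.101 and 0 CPM on the older ones. The gene's sum was 158 to 169 CPM on the younger days, 179 CPM on day 7 and 284 CPM on day 12, and its 3 other isoforms took most of it. White roots had the isoform pattern of the older cluster roots, with i4 at 17.5 to 30.4 CPM and i5 at 0. Mature leaves from hydroponics had that of the younger ones, with i4 at 0 and i5 at 3.33 to 13.6 CPM. In wild leaves, however, i4 rose from stage 1 to stage 4 (log2 fold change 8.35, edgeR, adjusted p = 0.00761). There i5 fell (log2 fold change -8.79, edgeR, adjusted p = 0.0345). Of all transcripts tested in wild leaves, 16.9% rose and 21.8% fell.

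White roots, which the rule did not use, held intermediate median levels of the higher transcripts. Their medians of the lower ones were near day 4, the lowest of the younger days. The higher transcripts had a median log2 CPM of 1.99, 1.71 and 1.00 in white roots at 1, 10 and 50 uM Pi, between day 4 and day 7. In 77 of the 323 the 3 white root libraries lay at or below the highest younger cluster root, in 19 they lay at or above the lowest older one, and the other 227 were between or mixed. The lower transcripts had medians of 3.14, 3.28 and 2.83, close to the 3.23 of day 4. In 35 of the 176 the 3 white root libraries were at or above the lowest younger cluster root, in 2 they were at or below the highest older one, and 139 were between or mixed. The mean white root level was nearer to the mean of the younger than of the older days for 154 of the 176 (87.5%), for 218 of the 323 (67.5%) and for 66.8% of all 19846 transcripts. With groups chosen without day 12 these shares were 84.9%, 61.2% and 59.8%.

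In white roots, both groups differed between 1 and 50 uM Pi more often than all measured transcripts did, in both directions. By size alone, 758 of 19632 transcripts (3.86%) were at least 4-fold higher at 1 than at 50 uM Pi and 421 (2.14%) at least 4-fold lower, again from 100 counts in either library. Of the 323 transcripts higher on the older days, 28 (8.67%) were higher at 1 uM Pi and 11 (3.41%) lower, and 143 had enough counts to be measured. Of the 176 lower ones, 18 (10.2%) were higher at 1 uM Pi and 4 (2.27%) lower, and 116 could be measured. Among all 19846 transcripts these shares were 2.61% and 0.877%. The median log2 difference between 1 and 50 uM Pi was 0.50 over the higher group, 0.27 over the lower group and -0.01 over all. With groups chosen without day 12, 8.26% of the higher and 8.79% of the lower group were higher at 1 uM Pi, beside 2.42% of the measured transcripts. Shares lower at 1 uM Pi were not counted for those groups. Each supply has 1 library, so these values have no replicate check.

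Both groups held more root-preferring transcripts than the measured ones as a whole. Of the 176 lower transcripts, 66 (37.5%) were on the root-preferring list and 15 (8.52%) on the leaf-preferring list. Of the 323 higher ones, 75 (23.2%) and 27 (8.36%) were, where all 19846 had 17.3% and 6.27%. With groups chosen without day 12, the root-preferring shares were 32.6% for the lower and 28.1% for the higher group, beside 17.5% of the measured transcripts, and the difference between the groups was not tested. No count was found in any mature leaf library for 125 of the 323 (38.7%) and 47 of the 176 (26.7%), against 6.36% of all 19846. All 3 mature leaf libraries had at least 10 counts for 102 (31.6%) and 59 (33.5%), against 76.2% of all. In white roots 27 of the 323 (8.36%) and 1 of the 176 (0.568%) had no count, against 0.267% of all. The median log2 fold change by age class was 0.04 over 5371 tested root-preferring transcripts, -0.02 over 2611 leaf-preferring ones and -0.01 over all 35818. By the size rule 2.18% of the measured root-preferring transcripts were higher and 1.92% lower, and 2.17% and 1.2% of the leaf-preferring ones, so a median near 0 covers members that differed in both directions.

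In wild leaves, many of the transcripts lower on the older cluster root days fell from stage 1 to stage 4. The leaves share no library with the cluster roots, and stages 1 and 4 had 3 libraries each, with totals of 4848372 to 6178864 at stage 1 and 1517487 to 3004237 at stage 4. Of the 176 transcripts lower on the older days, 87 (49.4%) fell from stage 1 to stage 4 and 16 (9.09%) rose (edgeR, adjusted p under 0.05). Another 43 were tested and not called, and 30 were too low in leaves to be tested. With the replicate number of the leaves as a block, 90 fell and 16 rose. Of the 19846 transcripts measured in cluster roots 26.2% fell and 14.6% rose, and of all 31067 tested in leaves 21.8% fell and 16.9% rose. The share that fell was thus above both backgrounds, and the share that rose below both, with 17.0% of the group and 10.5% of the 19846 not tested. Of the 239 transcripts lower without day 12, 99 (41.4%) fell and 21 (8.79%) rose, where 27.3% and 14.5% of the measured ones did. The group's median log2 CPM, on a scale where 0 counts lie at -1.44, was 3.31 ± 0.120 at stage 1 (SD over 3 libraries). It was 2.45 ± 0.188 at stage 2 and 0.35 ± 0.329 at stage 3, and it stood at the value of 0 counts in the remaining stages. Its share of all counts was 0.604 ± 0.0193% at stage 1, 0.469 ± 0.0223% at stage 2 and 0.731 ± 0.0602% at stage 3 (SD, n = 3). In the remaining stages, 4 and M, that share was 0.489 ± 0.220% and 0.102 ± 0.0262%.

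Transcripts higher on the older days were mostly too low in leaves to be tested. Of the 323, 215 were not tested, 50 (15.5%) rose from stage 1 to stage 4, 6 (1.86%) fell and 52 were tested and not called. With the replicate number of the leaves as a block, 10 fell and 54 rose. Of all measured transcripts 14.6% rose and 26.2% fell, but 66.6% of the 323 were not tested, against 10.5% of all, so these shares cannot be read against each other. For 70 of the 323 (21.7%) no wild leaf library held a count, against 9 of the 176 lower transcripts (5.11%) and 2.3% of all 19846. The group's share of counts was 0.117 ± 0.0115% at stage 1, 0.341 ± 0.0105% at stage 3 and 0.306 ± 0.0381% at stage 4 (SD, n = 3), below the 1.58% and 6.17% of the older cluster roots.

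**Figure D5:**
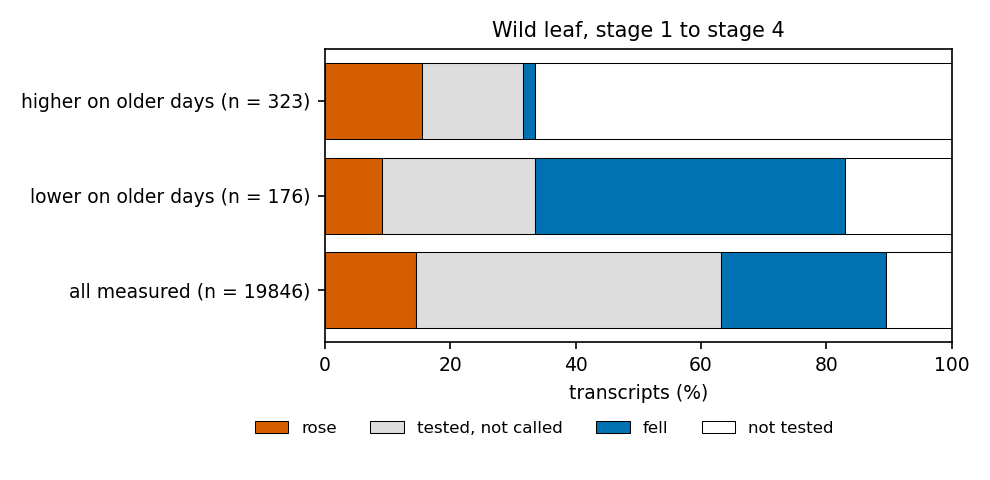
Percentage of transcripts that rose, fell, were tested without a call or were not tested from wild leaf stage 1 to stage 4, for the 323 transcripts higher and the 176 lower on the older cluster root days and for all 19846 measured in cluster roots. Falls make up 49.4% of the lower group and 26.2% of all.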

How the data were processed

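The authors deposited estimated counts per transcript for 26 libraries. Per the labels' protocols, libraries came from a stranded kit for total RNA with plant Ribo-Zero. Trim Galore 0.6.6, kallisto and DESeq2 1.30.1 are listed in the submitters' processing notes, with no roles. The assembly, the use of strand and any filters were not given in the sources used here. In a cluster root library 50.8 to 56.4% of the values were not whole, and counts were rounded for testing.

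R 4.3.3 was used with edgeR 4.0.16 and DESeq2 1.42.0. Age class was fitted over the 5 cluster root libraries (filterByExpr with minimum count 10 and total 15, TMM, robust quasi-likelihood fit, Benjamini-Hochberg over all tested). CPM values shown used TMM over the 11 hydroponic libraries, with a prior count of 2 on the log2 scale. White roots and mature leaves were fitted with tissue and log10 Pi, and the 15 wild leaf libraries with stage. The fits were run on simulated data, in which the libraries of an age class were replicates around 1 mean. Change among the days of a class was not simulated. Each SE was derived from the fitted log2 fold change and its F statistic. Folds against 0 counts are bounds against 3 counts over the group.

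Named items were the 2 largest fitted differences per direction with CPM ranges that do not overlap and average log2 CPM from 2 up. This is the rule's fallback for too few calls, with its level minimum kept although the fallback does not ask for it. Members, lists and tests were chosen with earlier results of these data known. Gene lists by symbol could not be matched, since IDs carry no names. Deviations of wild leaf libraries from their stage means correlated at 0.117 to 0.393 in 30 same-numbered pairs and at -0.264 to -0.0151 in 60 others. The replicate numbers thus look like pairs. The reported leaf fit used stage alone and ignored them, and a fit with the number as a block was the alternative. White roots at 1 and 10 uM Pi shared the rounded total of 11508234, but 90.9% of values differed between them, so they were kept as separate samples.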

Additional observations from a re-analysis of the deposited data

How the results depend on the processing

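The age class test called 0 transcripts and 0 genes with DESeq2 size factors, with TMM without the 20 most abundant, under no or a stricter count filter, against a 1.5-fold change and with libraries thinned to 8162970 counts. DESeq2's Wald test called 4252 transcripts and 3233 genes, a fit of all 11 hydroponic libraries 50 and 1104, and log2(day + 1) 658 and 2223. Leaving out 1 cluster root library gave 0 to 6994 transcripts and 0 to 6155 genes. Both maxima came without day 7, and without day 12 the test called 22 genes. The cause was not tested. The named items kept their direction under every alternative that tested them. Each was chosen for its size and has 0 counts in all libraries of 1 class, so the direction could not have turned.

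The size rule gave 1024 higher and 1050 lower transcripts at 2-fold, 431 and 383 at a minimum of 30 counts, and 173 and 55 for summed genes. Leaving out 1 library gave 242 to 1242 higher and 117 to 2428 lower. Steps in order of day counted 1115, 910, 1536 and 3674 transcripts at 30 counts and 1555, 894, 2167 and 5178 at 2-fold, against 297, 166, 463 and 1702 as reported, so the step after day 7 held the most under each. The white root contrast of Pi counted 3004 and 3393, against 1179.

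With the replicate block, stages 1 and 4 of the wild leaf differed in 13027 transcripts against 12014, and 10 against 6 higher transcripts fell, the one count moved over 1.5 times. The white root and mature leaf test called 12752, and 5307 to 10272 without 1 library. Without 1 cluster root library the root-preferring median ran from -0.10 to 0.11 and the leaf-preferring median from -0.11 to 0.053. At 16-fold the leaf-preferring median was -0.061. Depth limits transcripts under 100 counts, and no cluster root day has a replicate.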
